A study of Caenorhabditis elegans with 36 samples.

Results

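The comparison described here set Caenorhabditis elegans raised on the antibiotic doxycycline (50 µM, 4 libraries) against worms raised on the solvent DMSO (4 libraries), 8 of the 36 whole-worm RNA-seq libraries of a study of mitochondrial stress responses. All 8 came from batch 2 as the labels number it. The batch held 1 further group, 4 libraries from worms on 250 µM teriflunomide, an inhibitor of the mitochondrial enzyme dihydroorotate dehydrogenase. These libraries were fitted together with the 8 and are used below for a direct contrast. Every worm was of the wild-type strain N2 and was fed HT115 bacteria carrying an empty RNAi vector, at 20 °C, on plates with IPTG (2 mM), carbenicillin and 10 µM 5-fluorouracil, a blocker of DNA synthesis, so control worms carried these agents too. About 3000 first-stage larvae per sample were exposed until day 1 of adulthood, and each group had 4 biological replicates. Each library pools whole worms, so fewer cells of a type and less RNA per cell cannot be told apart. Of the 27782 genes in the table, 15695 passed the filter on low counts and were tested.

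Doxycycline binds the small subunit of bacterial ribosomes, and it also binds the related ribosomes of mitochondria, which make the core respiratory chain subunits that mitochondrial DNA encodes. All other respiratory subunits are encoded in the nucleus, so a block of mitochondrial translation leaves the respiratory complexes with parts from a single genome. In C. elegans this imbalance is known to start the mitochondrial unfolded protein response, in which the transcription factor ATFS-1 and the chromatin-linked factors DVE-1 and UBL-5 raise the chaperones HSP-6 and HSP-60, and in which growth and reproduction are often delayed.

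Total counts per library ran from 19301790 to 20404611 in the 8 libraries. DMSO replicate 1 stood apart from the other 3 DMSO libraries: on the first principal component of the 12 libraries of the batch, with 70.4% of the variance, it lay at -40.7, against -133 to -125 for the others and 135 to 138 for the doxycycline libraries. The teriflunomide libraries lay at -51.0 to -15.9, a range that held DMSO replicate 1. Some results that rest on that DMSO library are given with and without it. Other list results are given only with it, though they moved without it. Rises in glycolysis went from 12 to 15 of 19 genes. The median log2 fold change of the infection response genes went from 1.03 to 0.71. Levels are given as normalised CPM, read counts relative to the library size scaled by TMM, and changes as log2 fold changes, doxycycline minus DMSO, with a standard error (SE). A gene rose or fell only where the Benjamini-Hochberg adjusted p of edgeR's quasi-likelihood test, over all genes tested, was below 0.05.

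Most of the transcriptome differed between the groups. Of the 15695 genes tested, 7024 rose (44.8%) and 6307 fell (40.2%), together 84.9%, and 5360 were at least 2-fold higher (34.2%) and 4767 at least 2-fold lower (30.4%). The 4 doxycycline libraries lay wholly above or below the 4 DMSO libraries for 78.9% of genes. The count of members called in any gene list below therefore has to be read against 44.8% and 40.2%. Without DMSO replicate 1, 7169 genes rose (45.7%) and 6503 fell (41.4%), together 87.1%, and 13193 of the 13331 genes called with all libraries were called again in the same direction. The median log2 fold change of all genes tested was 0.23. It depended on how the libraries were scaled, since so many genes moved: with upper-quartile scaling it was 0.94, with 9126 genes higher and 4734 lower. Changes of that size or less are therefore to be read against the median of all genes, 0.12 to 0.94 across scalings.

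The largest rises included genes that were nearly silent in the DMSO worms. dct-19 (chromosome IV, 12942933 to 12944526, build WBcel235), named for control by the insulin pathway factor DAF-16, had 0.0501, 0, 0.0514 and 0 CPM in the DMSO libraries and 6.15, 10.2, 7.27 and 8.78 CPM in the doxycycline libraries. With 2 counts in all DMSO libraries together, its ratio was 324 (95% counting interval 89.3 to 2679). dod-21 (12936738 to 12937988) and dod-24 (12940106 to 12941354), named for acting downstream of the same factor, lie beside it. dod-24, which is also known to rise on infection, went from 9.67, 15.1, 16.8 and 21.1 CPM to 365, 440, 484 and 472 CPM, a log2 fold change of 4.81 (SE 0.26, adjusted p = 4.7e-09). dod-21 rose by 6.61 on the log2 scale (SE 0.63) from at most 0.148 CPM in any DMSO library to between 6.39 and 12.7 CPM. All 3 genes were among the largest rises, which were picked only from genes whose groups lay wholly apart.

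parg-2, which encodes a poly(ADP-ribose) glycohydrolase (chromosome IV, 8712408 to 8715132), stood at 1.65, 2.22, 3.96 and 0.492 CPM in DMSO and at 93.0, 101, 105 and 110 CPM in doxycycline (log2 fold change 5.62, SE 0.44). nhx-6, a sodium/proton exchanger, rose by 5.68 and catp-2, a cation-transporting ATPase, by 4.78 on the log2 scale. The cytochrome P450 gene cyp-14A4 rose by 4.78 and its neighbour in name cyp-14A5, picked out after its values were seen, by 4.73, from 4.78 to 11.6 CPM across the DMSO libraries to between 192 and 221 CPM. The rest of the largest rises were 3 cuticle collagens and 2 members of the nematode-specific peptide family E. The collagens were col-126 (5.64), col-127 (5.56) and col-149 (5.21), the peptide genes nspe-7 (6.25) and nspe-2 (4.87), all on the log2 scale. col-126 and col-127 are adjacent and very similar, as are members of the nspe family, so reads may have been split between copies. Among genes with a sequence name only, F22B3.7 had 1 count in the 4 DMSO libraries and 932 in the doxycycline libraries, and C07G1.7 and C08E8.3 rose by 7.23 and 6.37 on the log2 scale.

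Among the largest falls were genes known from the embryo, and several were at 0 counts in the doxycycline worms. hch-1 (chromosome X, 14696411 to 14699977), which encodes the astacin-type protease that digests the eggshell at hatching, had 18.3, 50.2, 22.0 and 60.1 CPM in the DMSO libraries and 0 counts in every doxycycline library, at least 1037-fold lower when a total of 3 counts in the group is taken as the detection floor. cav-1, which encodes caveolin and is known from the germ line and embryo, went from 113, 287, 182 and 314 CPM to 0.238, 0.103, 0 and 0.195 CPM (log2 fold change -10.64, SE 0.53, adjusted p = 3.1e-09). dpy-14, a collagen needed in embryos, went from 104, 383, 175 and 451 CPM to between 0.190 and 0.362 CPM. In all 3 the DMSO libraries themselves were uneven, replicates 2 and 4 lying above replicates 1 and 3, while the doxycycline libraries were uniformly at or near 0.

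Zero counts in doxycycline were also found for pes-2.1 (at least 282-fold lower), for sdz-30 (at least 215-fold) and sdz-14 (at least 188-fold), whose names mark SKN-1-dependent zygotic expression, and for the BTB-domain gene btb-11 (at least 204-fold). The unnamed genes C08F1.10, C08F1.6 and Y106G6D.2 were likewise at 0 counts, at least 526-, 310- and 147-fold lower. A single count was found in the doxycycline libraries for skr-8, a Skp1-related gene (ratio 1493, interval 268 to 59015), for dsl-2, a Notch ligand (1061, interval 190 to 41930), and for the F-box gene fbxc-40 (803, interval 144 to 31759). The collagen col-165 fell by 9.35 and the C-type lectin gene clec-266 changed by -9.28 on the log2 scale.

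Messages of the oocyte and the eggshell were low in the doxycycline worms across the board. All 29 genes of the oocyte and eggshell list passed the filter and all 29 fell, with a median log2 fold change of -4.38. The list took 1.85%, 1.79%, 2.18% and 1.69% of all counts in the DMSO libraries and 0.139%, 0.192%, 0.146% and 0.179% in the doxycycline libraries. The groups were 11.5-fold apart, with p = 0.0286 in a two-sided exact permutation test, the smallest that 4 against 4 libraries can give, and 0.0381 after adjustment over the 8 lists whose shares were tested. Groups that lie wholly apart always give this p, and 78.9% of single genes lay so. The lists were also chosen with earlier results of these data known. The p of a share, here and below, therefore does not set a list apart from other genes. egg-2, an oocyte surface protein needed for fertilization, fell from 294, 306, 365 and 292 CPM to 10.3, 14.5, 9.93 and 11.8 CPM (log2 fold change -4.75, SE 0.14, adjusted p = 8.4e-11). lin-41, a regulator of oocyte growth, fell by 3.85, egg-3, which works with egg-2 at the oocyte surface, by 4.38, and mbk-2, the kinase of the oocyte-to-embryo switch, by 2.22 on the log2 scale. rme-2, the oocyte receptor for yolk, named here after its values were seen, went from between 857 and 1293 CPM to between 31.7 and 57.0 CPM.

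**Figure D1:**
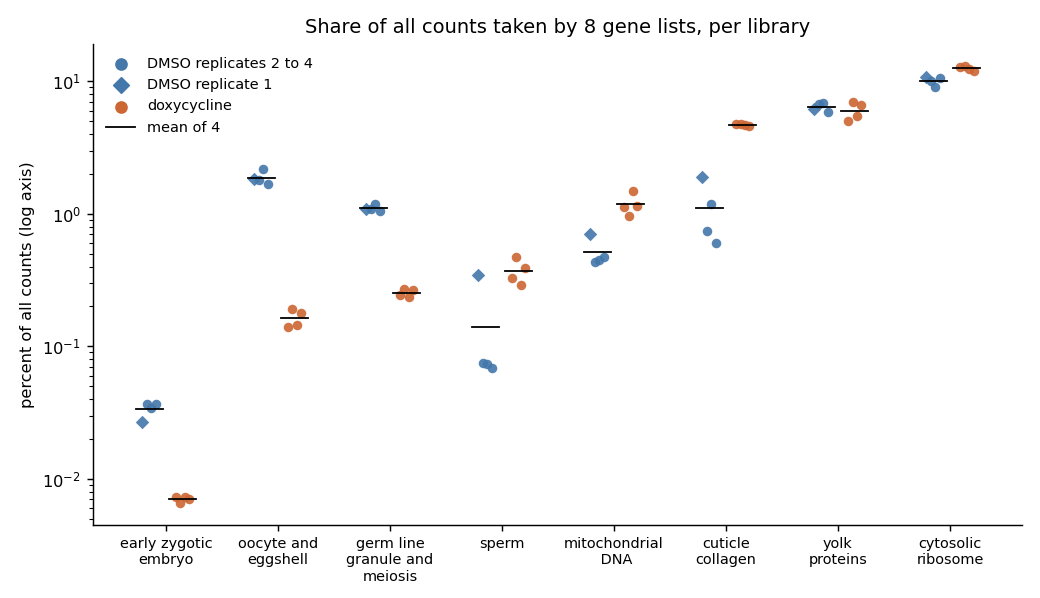
Share of all counts (percent, log axis) taken by 8 gene lists in each of the 4 DMSO libraries (blue, replicate 1 as a diamond) and the 4 doxycycline libraries (orange), with the mean of each group as a black line. Oocyte and germ line shares were lower and mitochondrial DNA and collagen shares higher in every doxycycline library, yolk protein shares overlapped, and the sperm share of DMSO replicate 1 (0.343%) lay among those of doxycycline.

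The mitotic and meiotic germ line followed the oocyte genes with smaller changes. Of 41 germ granule and meiosis genes, 40 fell and none rose, with a median of -2.11. glp-1, the Notch receptor that keeps germ cells dividing, stood at 280, 293, 324 and 293 CPM in DMSO and at 37.9, 45.5, 36.1 and 42.1 CPM in doxycycline (log2 fold change -2.88, SE 0.09). The translational regulators nos-3 and daz-1 fell by 2.20 and 2.72, and zim-3, a protein of meiotic chromosome pairing, by 2.11 on the log2 scale. The single member not called was glh-1, a germ granule helicase (-0.08). The share of all counts fell from 1.10% ± 0.0641 (SD, n = 4) to 0.254% ± 0.0175 (exact permutation p = 0.0286, adjusted 0.0381).

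Of 36 genes of the early zygotic embryo in the table only 19 passed the filter, and those that did were mostly carried by the DMSO libraries, so their 18 falls are a description. pal-1, a homeodomain regulator of the posterior embryo, fell from 143, 148, 178 and 142 CPM to 12.7, 13.9, 11.7 and 12.6 CPM. tbx-9, a T-box factor, went from between 22.3 and 31.6 CPM to between 0.190 and 0.362 CPM, and the forkhead gene pes-1 fell by 7.14 on the log2 scale, and sdz-28 changed by -5.63. The summed share of the whole list was 0.0337% ± 0.00478 in DMSO and 0.00705% ± 0.00031 in doxycycline, with the groups apart. A large part of the DMSO share came from pal-1, whose message is also supplied by the mother. The share is therefore not one of zygotic messages alone.

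The yolk proteins, made by the adult intestine and carried to oocytes, did not follow the oocyte genes. The 6 vit genes took 6.20%, 6.73%, 6.86% and 5.83% of all counts in DMSO and 5.00%, 6.99%, 5.50% and 6.59% in doxycycline, and these ranges overlapped (exact permutation p = 0.457). Of the markers of the labelled adult stage, yolk messages were thus present in both groups, while oocyte and embryo markers were low in doxycycline. Only vit-5 was called: 12550, 16465, 14820 and 15016 CPM became 7803, 12278, 8912 and 10717 CPM (log2 fold change -0.57, SE 0.16, adjusted p = 0.0065), a fall that turned to 0.14 with upper-quartile scaling. The value for vit-2 was -0.23 (SE 0.13) and for vit-6 0.06 (SE 0.13), neither called; without DMSO replicate 1 or doxycycline replicate 2, vit-2 was called (-0.29 and -0.33). The vit genes are close copies of each other, so single members are less certain than their sum.

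Sperm genes went the other way, but that result leaned on which DMSO libraries were taken. Of 86 sperm genes tested, 59 rose and 6 fell, with a median of 1.71. Their share of all counts was 0.343% in DMSO replicate 1 and 0.0752%, 0.0733% and 0.0687% in the other 3, against 0.331%, 0.471%, 0.289% and 0.392% in doxycycline. The groups overlapped only through DMSO replicate 1 (exact permutation p = 0.0857, adjusted 0.0980). Without that library the doxycycline share was 5.12 times the DMSO share, 80 of the 86 genes rose and the median was 2.99. spe-9, a sperm surface protein needed to fertilize, picked out after its values were seen, had 3.01 CPM in DMSO replicate 1 and 0.617 to 0.935 CPM in the others, against 5.32 to 9.56 CPM in doxycycline. The 6 members that fell were spe-39, a vesicle trafficking gene (-2.18), fog-1 and cpb-1, RNA-binding regulators of sperm formation (-2.03 and -0.96), spe-48 (-0.79), and spe-5 and spe-44 (-0.38 and -0.27), the last couple at 0.33 and 0.44 with upper-quartile scaling.

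Genes of DNA replication and cell division fell without exception among the 42 tested, with a median of -2.64. Cyclin A (cya-1) stood at 116, 125, 129 and 126 CPM in DMSO and at 15.5, 15.4, 15.6 and 17.3 CPM in doxycycline (log2 fold change -2.96, SE 0.07, adjusted p = 8.4e-11). Cyclin E (cye-1) fell by 2.74, cyclin B3 (cyb-3) by 4.70 and the origin licensing gene cdc-6 by 2.32 on the log2 scale. Of the 28 histone genes that passed the filter, out of 56, 18 fell and 8 rose; the linker histone his-24 went from 23.0, 47.7, 31.5 and 54.3 CPM to between 0.618 and 1.24 CPM. Nucleotide synthesis followed in part. Of 12 pyrimidine and deoxynucleotide genes, 9 fell and 2 rose. Both subunits of ribonucleotide reductase fell, rnr-1 by 3.57 and rnr-2 by 3.52, and so did dut-1, the dUTPase, by 3.07 and ctps-1, CTP synthase, by 1.35. cdd-1, a cytidine deaminase of pyrimidine salvage, instead rose from 5.96, 5.16, 6.94 and 4.78 CPM to 27.4, 29.2, 28.4 and 24.1 CPM (2.25, SE 0.12). pyr-1, the first enzyme of the pathway, rose by 0.27, close to the median of all genes.

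Markers of somatic tissues rose as the germ line markers fell. Of 31 body wall muscle genes, 29 rose and 2 fell (median 1.66), the latter unc-60 (-0.41) and pat-3 (-0.33), which stood at 0.30 and 0.38 with upper-quartile scaling. deb-1, which encodes vinculin, went from 96.4, 89.3, 73.8 and 86.8 CPM to 246, 279, 253 and 274 CPM (log2 fold change 1.60, SE 0.09, adjusted p = 7.2e-09). unc-15, paramyosin, stood at 1103, 690, 800 and 668 CPM in DMSO, with replicate 1 highest, and at 2790, 3133, 2907 and 2916 CPM in doxycycline. tnt-2 and pat-10, troponins T and C, rose by 1.62 and 1.41.

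Of 38 neuron genes 32 rose and 2 fell (median 1.13), and of 110 neuropeptide and insulin genes tested 97 rose and 3 fell (median 1.14). ace-1 and ace-2, acetylcholinesterases, rose by 1.71 and 1.52, egl-21, which processes neuropeptides, by 1.15, and the FMRFamide-like flp-18 from between 9.87 and 12.9 CPM to between 30.9 and 38.4 CPM. The exceptions were insulins: ins-34 fell from 3.21, 7.71, 5.50 and 7.19 CPM to 0.0477, 0.0517, 0 and 0 CPM, and ins-2 and ins-11 fell by 4.44 and 2.00 on the log2 scale, the latter not called without doxycycline replicate 2 (-1.71). In the pharynx 14 of 19 genes rose and 3 fell (median 1.53), with the myosins myo-2 at 2.02 and myo-5 at 1.24. All 3 falls were at least 2-fold, the lowest at -4.14. In the intestine 22 of 30 rose and 5 fell (median 0.76). ifb-2, an intermediate filament of the gut wall, stood at 173, 169, 182 and 190 CPM in DMSO and at 724, 668, 746 and 695 CPM in doxycycline (1.99, SE 0.06). The 5 intestinal genes that fell were digestive and lysosomal enzymes: the proteases cpr-1, cpr-4 and cpr-6 and the lipases lipl-1 and lipl-3. Of these cpr-6 (-0.36) stood at 0.35 with upper-quartile scaling, and without doxycycline replicate 1 only 3 of the 5 were called, cpr-4 (-0.83) and lipl-1 (-0.71) being lost; cpr-4 (-0.49) was also lost without DMSO replicate 4 and lipl-1 (-0.60) without DMSO replicate 2. lipl-5, another lysosomal lipase, rose by 1.28.

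**Figure D2:**
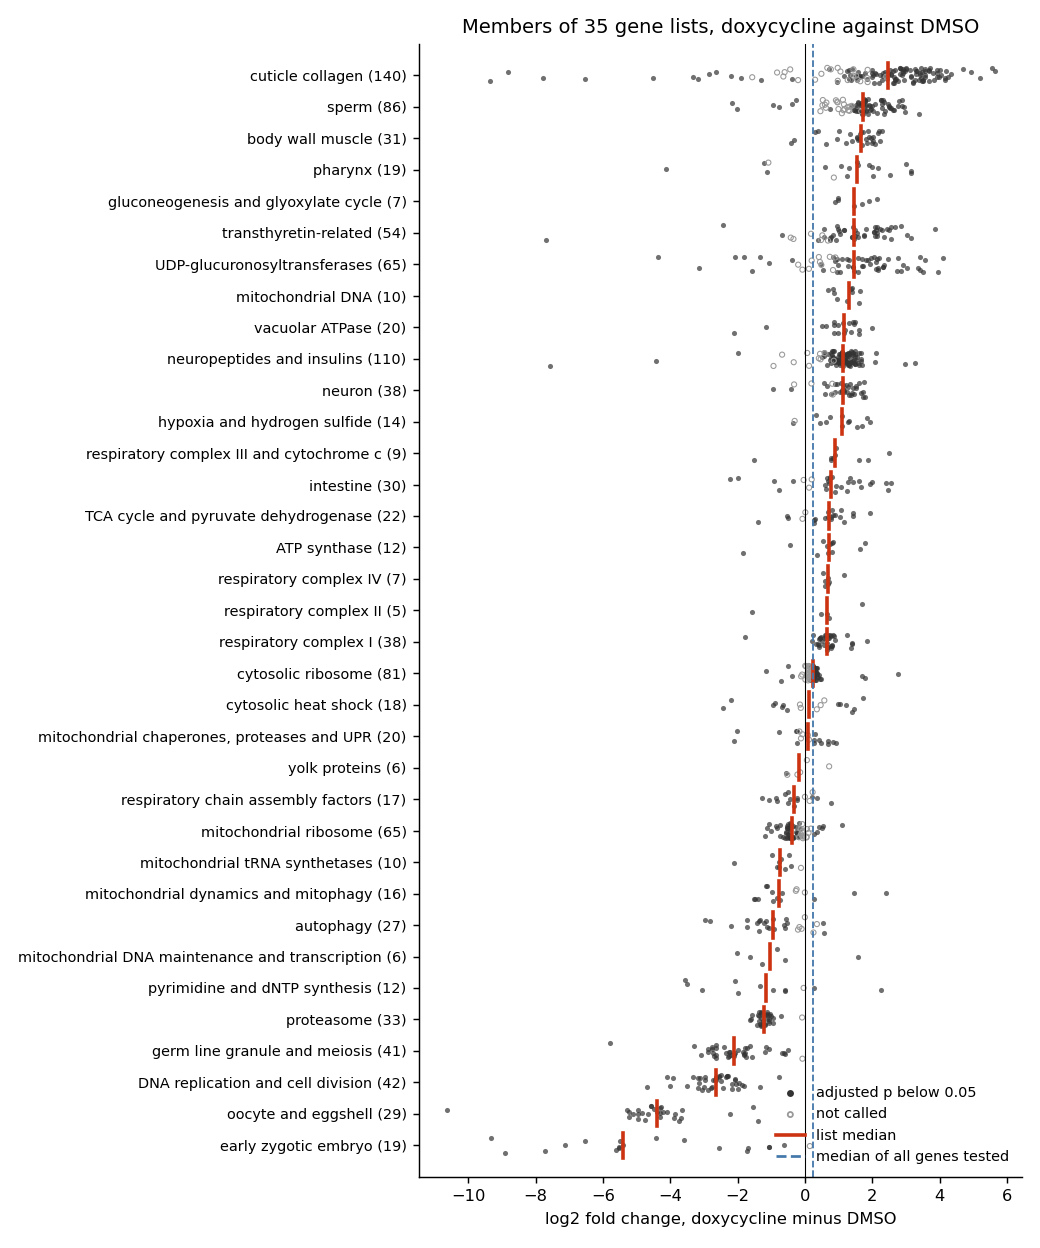
Log2 fold changes (doxycycline minus DMSO) of the tested members of 35 gene lists, with the number tested in brackets, filled points for members with an adjusted p below 0.05, open points for the rest, a red bar for the list median and a dashed line for the median of all genes tested (0.23). Embryo, oocyte and cell division lists lay at the bottom, respiratory chain lists between 0.65 and 0.89, and muscle, sperm and collagen lists at the top.

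Cuticle genes mostly rose, with some large falls. Of 140 cuticle collagens that passed the filter, out of 174, 104 rose and 13 fell (median 2.46), and their share of all counts was 1.89%, 0.745%, 1.19% and 0.603% in DMSO and 4.80%, 4.73%, 4.72% and 4.63% in doxycycline. The groups were 4.70-fold apart (exact permutation p = 0.0286, adjusted 0.0381). DMSO replicate 1 was again nearest to doxycycline, and without it 118 collagens rose. col-44 rose by 4.92, with 0.0371 CPM on average in DMSO. The 13 that fell included col-121, from 10.7, 44.3, 20.2 and 47.5 CPM to at most 0.103 CPM, and dpy-17, from 74.2, 296, 134 and 355 CPM to between 0.808 and 1.14 CPM. For both genes DMSO replicates 2 and 4 were the highest, as for the embryonic genes above. Of 101 molting and cuticlin genes tested, 40 rose and 28 fell, against 54 and 22 with upper-quartile scaling. The nuclear receptor nhr-23, a driver of the molting cycle, fell by 1.54, the patched-related ptr-2 by 3.62 and fbn-1, a fibrillin-like matrix protein, by 3.29. Of 54 transthyretin-related genes, small secreted proteins, 45 rose and 3 fell (median 1.46), the falls being 5 without DMSO replicate 1, with ttr-41 at 1.76 and ttr-50 at -7.68.

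The messages of mitochondrial DNA rose together. All 10 protein-coding and related mitochondrial genes that passed the filter, of 11 in the list, rose, with a median of 1.31. The list took 0.703%, 0.435%, 0.446% and 0.473% of all counts in DMSO and 1.12%, 0.967%, 1.48% and 1.15% in doxycycline, a 2.32-fold difference of the means of the log values (exact permutation p = 0.0286, adjusted 0.0381). DMSO replicate 1 was the highest of its group and below every doxycycline library. atp-6, the ATP synthase subunit a, went from 481, 262, 317 and 307 CPM to 1026, 877, 1285 and 1033 CPM (log2 fold change 1.63, SE 0.19, adjusted p = 6.2e-06). ctb-1, cytochrome b, rose by 1.61, nduo-5 and nduo-1, subunits of complex I, by 1.4 and 1.25, and ctc-1, the core subunit of cytochrome oxidase, by 0.96. The 3 cytochrome oxidase genes, with ctc-2 at 0.87 and ctc-3 at 0.83, were in the lower part of the range, above only nduo-6 (0.69).

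The nuclear genes of the respiratory chain rose as well, by less. Of 66 nuclear genes of the 5 complexes, 61 rose and 5 fell, with a median of 0.68. The medians of the 5 complexes were 0.42 to 0.66 above the median of all genes under each scaling run. By complex, 37 of 38 genes of complex I rose (median 0.65, its mitochondrial members included), 4 of 5 of complex II, 8 of 9 of complex III and cytochrome c, 7 of 7 of complex IV and 10 of 12 of the ATP synthase. nuo-4, a subunit of complex I, was typical, with 247, 228, 233 and 224 CPM in DMSO and 395, 400, 401 and 395 CPM in doxycycline (0.77, SE 0.04, adjusted p = 6.7e-09). isp-1, the Rieske protein of complex III, rose by 0.89, cox-5A of complex IV by 0.54 and atp-2, the catalytic subunit of the ATP synthase, by 0.64.

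The ratio of summed counts of mitochondrial to nuclear respiratory genes, computed after the values were seen, was 0.403, 0.287, 0.285 and 0.321 in DMSO and 0.417, 0.353, 0.539 and 0.429 in doxycycline. The groups overlapped through DMSO replicate 1, and the 1.34-fold difference had p = 0.0571 in an exact permutation test. Without that library the groups were apart, though 4 against 3 libraries cannot give a p below 0.0571.

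The nuclear exceptions were mostly second copies of a subunit whose other copy rose. These pairs were picked out after their values were seen. asb-1 and asb-2 both encode subunit b of the ATP synthase, asb-1 being known for expression in the germ line and asb-2 in the soma. asb-1 fell from 221, 246, 266 and 230 CPM to 63.2, 75.5, 60.7 and 66.9 CPM (-1.86, SE 0.08), while asb-2 rose from 332, 179, 216 and 178 CPM to 738, 832, 753 and 766 CPM (1.77, SE 0.17). The flavoprotein genes of complex II divided in the same manner, sdha-2 at -1.59 (SE 0.09) and sdha-1 at 1.69 (SE 0.12), with sdhb-1, mev-1 and sdhd-1 at 0.67, 0.73 and 0.48. So did the genes of a core subunit of complex I, nduf-2.2 at -1.77 and gas-1 at 1.83, and the core protein genes of complex III, ucr-2.3 at -1.50 against ucr-2.1 and ucr-2.2 at 1.61 and 1.88. Subunit g of the ATP synthase differed less, asg-1 at -0.44 and asg-2 at 1.63. With upper-quartile scaling asg-1 was at 0.27.

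**Figure D3:**
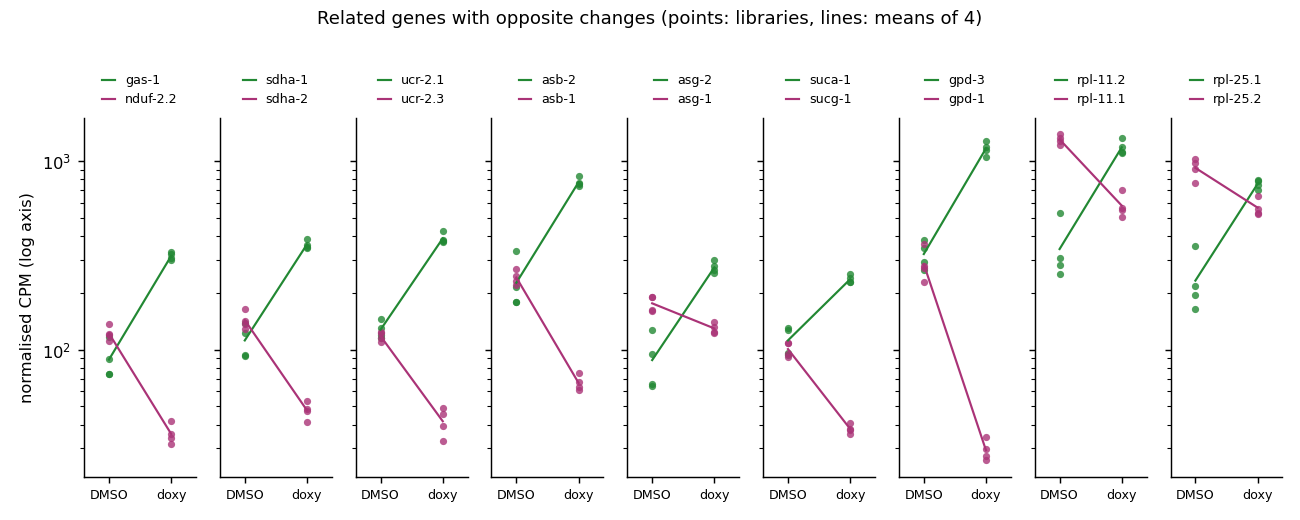
Normalised CPM (log axis) of 9 pairs of related genes in the 4 DMSO and 4 doxycycline libraries (points), with lines joining the group means. The pairs were picked out for their opposite changes, so in each the green gene rose and its purple relative fell. CPM is not corrected for gene length, so levels should be compared within a gene only.

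The machinery that expresses mitochondrial DNA fell relative to other genes while its messages rose. Of 65 mitochondrial ribosomal protein genes, 45 fell and 6 rose, with a median of -0.38, which is 0.61 below the median of all genes; with upper-quartile scaling the sign flipped, 50 rising and 5 falling at a median of 0.33, still 0.61 below the median of all genes. mrpl-18 went from 41.1, 49.9, 50.1 and 47.8 CPM to 22.0, 19.2, 21.6 and 20.2 CPM (-1.19, SE 0.08, adjusted p = 2.9e-08). mrpl-51 and mrpl-40 fell by 1.13 and 1.00. mrps-14 of the small subunit stood out with a rise of 1.10, from between 54.4 and 62.1 CPM to between 116 and 131 CPM. Of 10 mitochondrial aminoacyl-tRNA synthetases, 9 fell and none rose (median -0.75), and with upper-quartile scaling 2 fell and 3 rose (median -0.04, still 0.98 below the median of all genes). The lowest was the arginyl enzyme rars-2, which went from 63.1, 75.7, 83.4 and 78.9 CPM to 17.3, 17.9, 16.3 and 18.6 CPM.

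Genes that copy, package and transcribe mitochondrial DNA fell in 5 of 6 cases (median -1.05), and in 3 with upper-quartile scaling (median -0.34). hmg-5, the packaging protein, went from 47.6, 62.7, 62.6 and 62.8 CPM to 14.9, 15.1, 13.5 and 14.2 CPM (-2.03, SE 0.09), the polymerase polg-1 fell by 1.28, the single-strand binding protein mtss-1 by 0.82 and tfbm-1, a methyltransferase-related transcription factor, by 1.64. The helicase gene twnk-1 rose by 1.56 from a low level, 0.720 to 1.30 CPM. Of 17 assembly factors of the respiratory complexes, 11 fell and 3 rose at a median of -0.32, which became 0.39 with 11 rising under upper-quartile scaling; cox-11, a copper chaperone of cytochrome oxidase, fell by 1.27 and coa-5 by 1.08. Of 16 genes of mitochondrial fusion, fission and mitophagy, 10 fell and 3 rose (median -0.78), against 8 and 5 with upper-quartile scaling (median -0.07). The mitophagy receptor fndc-1 fell by 1.51, the parkin homologue pdr-1 by 1.49, the fission dynamin drp-1 by 1.17 and the mitofusin fzo-1 by 0.82. Among 13 protein import genes 4 rose and 3 fell, a balance that was 12 and 1 with upper-quartile scaling and 1 and 4 with DESeq2 size factors. timm-23 rose by 0.63, and tomm-40 fell by 0.44 but stood at 0.28 with upper-quartile scaling. The lowest value counted in the list was that of tim-1 (-1.89), which is related to the timeless gene and is not an import gene.

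Genes of the mitochondrial unfolded protein response moved in both directions, in a balance that depended on the scaling. Of 20 mitochondrial chaperones, proteases and response regulators, 9 rose, 6 fell and 5 were not called, with a median of 0.10. The 20 included the peroxisomal protease lonp-2, which rose. They also included the packaging protein hmg-5, which fell and was counted above with the genes of mitochondrial DNA. With DESeq2 size factors 6 rose and 6 fell (median -0.02), and with upper-quartile scaling 17 rose and 2 fell (median 0.81); the list median was 0.13 to 0.14 below the median of all genes under every scaling run. hsp-6, the mitochondrial Hsp70 and the usual marker of the response, stood at 487, 407, 464 and 413 CPM in DMSO and at 747, 680, 721 and 672 CPM in doxycycline. The groups were apart, and the log2 fold change was 0.67 (SE 0.07, adjusted p = 3.4e-06), beside the median of 0.68 of the nuclear respiratory chain genes. hsp-60, its partner chaperonin, was at 343, 237, 296 and 221 CPM in DMSO and at 286, 254, 248 and 222 CPM in doxycycline. These values overlapped and the gene was not called (-0.12, SE 0.14, adjusted p = 0.43); its value was 0.01 without DMSO replicate 1 and 0.59 with upper-quartile scaling. The co-chaperone dnj-10 rose by 0.29, close to the 0.23 of all genes, phb-1, a prohibitin of the inner membrane, by 0.42, and Y22D7AL.10, a small chaperonin homologue, by 0.48.

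The regulators of the response did not move together. dve-1 rose from 16.5, 28.8, 22.1 and 24.9 CPM to 40.1, 38, 44.7 and 42.3 CPM (0.84, SE 0.14), while ubl-5 fell from 26.8, 19.8, 20.8 and 19.0 CPM to 12, 12.5, 14.2 and 12.2 CPM (-0.76, SE 0.12). atfs-1 fell by 0.28 (SE 0.08, adjusted p = 0.0064), but its libraries overlapped and it stood at 0.44 with upper-quartile scaling. The matrix proteases lonp-1 and clpp-1 fell by 0.24 and 0.23, at 0.47 and 0.48 with upper-quartile scaling, and the peptide exporter haf-1 was at -0.17 (SE 0.13, not called). Of the inner membrane proteases spg-7 rose by 0.25, about as much as the median gene (0.23), and ymel-1 was at 0.08 (not called). The lowest of the list was mics-1, from 92.0, 87.9, 100 and 93.0 CPM to 20.4, 22.9, 21.8 and 22.4 CPM (-2.09, SE 0.07). lonp-2, the peroxisomal Lon protease, rose by 0.93 and trx-2, the mitochondrial thioredoxin, by 0.68.

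**Figure D4:**
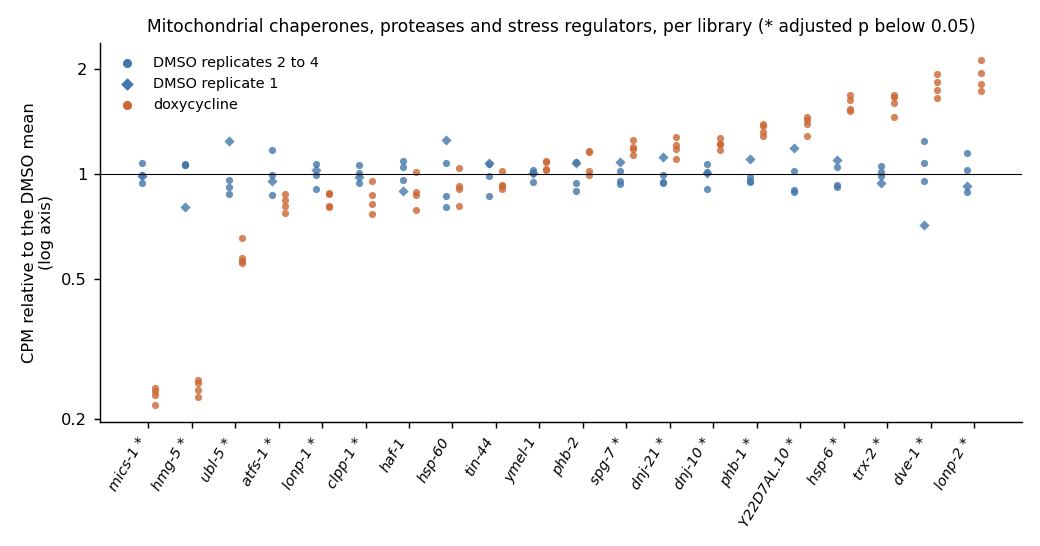
CPM of the 20 mitochondrial chaperones, proteases and stress regulators in each DMSO library (blue, replicate 1 as a diamond) and doxycycline library (orange), relative to the DMSO mean of the gene (log axis); an asterisk marks an adjusted p below 0.05. mics-1 and hmg-5 (a packaging protein of mitochondrial DNA) were lowest, hsp-60 overlapped with DMSO, and hsp-6, trx-2, dve-1 and lonp-2 (peroxisomal) were highest.

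Genes of amino acid stress and of sulfur metabolism moved further. atf-4, the translation-controlled transcription factor of the integrated stress response, rose from 62.1, 36.1, 35.5 and 42.3 CPM to 95.6, 93.8, 106 and 99.9 CPM (1.16, SE 0.15, adjusted p = 1.7e-05). Of its list of 10, 6 rose and 3 fell. The asparagine synthetase asns-2 rose by 1.07, pycr-1, of proline synthesis, by 1.62, and the kinase pek-1 by 0.57, whereas the kinase gcn-2 fell by 1.04. Of 14 genes of hypoxia and hydrogen sulfide handling, 12 rose and 1 fell (median 1.10). cysl-1 and cysl-2, cysteine synthase-like proteins, rose by 1.53 and 1.30, hif-1, the hypoxia factor, by 1.11, and cdo-1, cysteine dioxygenase, from 9.97, 9.01, 8.89 and 9.90 CPM to 32, 39.2, 33.6 and 38 CPM. In the one-carbon cycle 13 of 20 rose and 4 fell, a count of rises that was 8 without doxycycline replicate 2 and with DESeq2 size factors. cbs-1, cystathionine beta-synthase, rose by 1.18. sams-1, the S-adenosylmethionine synthetase that supplies lipid methylation, stood at 343 CPM in DMSO replicate 1 and 56.7 to 92.7 CPM in the other 3, against 456 to 599 CPM in doxycycline (1.95, SE 0.51), while its relative sams-3 fell from 113, 106, 110 and 109 CPM to 31.8, 27.3, 25.1 and 23.5 CPM.

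Carbon metabolism showed rises in the citric acid cycle (17 of 22, with 3 falls, median 0.72) and in glycolysis (12 of 19, with 3 falls, median 0.86), and in all 7 genes of gluconeogenesis and the glyoxylate cycle (median 1.46). pck-1, PEP carboxykinase, stood at 269, 177, 228 and 195 CPM in DMSO and at 684, 709, 717 and 709 CPM in doxycycline (1.70, SE 0.11, adjusted p = 2.1e-08). icl-1, the bifunctional glyoxylate cycle enzyme, rose by 1.46 from an uneven DMSO group, 436, 978, 746 and 1120 CPM, to between 2179 and 2393 CPM, and tps-2, a trehalose synthase, rose by 1.89. Some related genes again parted, while those that moved together were not counted. The glyceraldehyde-3-phosphate dehydrogenases gpd-1 and gpd-4 fell by 3.28 and 3.44 while gpd-2 and gpd-3 rose by 1.89 and 1.86; the members of each couple are near-identical, so reads may be split within it. hxk-1, hexokinase, fell from 436, 395, 511 and 379 CPM to 98.8, 106, 97.7 and 105 CPM. Of the beta subunits of succinyl-CoA ligase, sucg-1 fell by 1.41 and suca-1 rose by 1.08. ldh-1, lactate dehydrogenase, rose by 1.64.

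In lipid metabolism there were 23 rises and 6 falls among 38 genes of fatty acid oxidation, and 16 of 21 genes of fatty acid synthesis and desaturation rose and 1 fell, a fall not called without DMSO replicate 1 or without doxycycline replicate 2 or 4. The peroxisomal enzymes dhs-28 and daf-22, which shorten ascaroside side chains, rose by 1.02 and 0.76, and the desaturases fat-2, fat-1 and fat-6 by 0.98, 0.70 and 1.33. acs-2, an acyl-CoA synthetase of fasting, rose from 49.1, 132, 70.5 and 238 CPM to between 325 and 392 CPM. fat-7 and acdh-1 were not called, with DMSO libraries ranging from 6.06 to 34.8 CPM and from 177 to 563 CPM; without DMSO replicate 1 fat-7 was called as higher (1.83). In propionate breakdown 8 of 10 rose and 1 fell, with pcca-1 and pccb-1, the propionyl-CoA carboxylase subunits, at 0.99 and 0.89.

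Protein turnover changed most clearly at the proteasome. Of 33 proteasome genes 32 fell and none rose (median -1.21). The lid subunit rpn-5 went from 291, 303, 329 and 301 CPM to 98.4, 100, 97.5 and 101 CPM (-1.62, SE 0.06, adjusted p = 3.0e-10), with rpn-8, rpn-7 and rpt-5 at -1.4, -1.37 and -1.42. The member not called was rpn-6.2 (-0.09). Of 27 autophagy genes 19 fell and 2 rose (median -0.96), and with upper-quartile scaling 14 fell and 9 rose (median -0.24). The falls included cup-5, a lysosomal channel (-2.21), and the autophagosome genes epg-8 (-1.36) and epg-6 (-1.73). The vacuolar ATPase, the lysosomal proton pump, rose in 18 of 20 genes (median 1.15), with vha-6 of the intestine at 1.61; vha-18 and vha-7 fell by 2.10 and 1.15. Cytosolic ribosomal protein genes took 10.1% ± 0.775 of all counts in DMSO and 12.5% ± 0.51 in doxycycline (exact permutation p = 0.0286, adjusted 0.0381). Of the 81, 51 rose and 4 fell, against 12 and 4 with DESeq2 size factors and 78 and 1 with upper-quartile scaling, and their median of 0.22 did not differ from the 0.23 of all genes by more than 0.01. Here too some related genes parted, rpl-11.1 at -1.17 and rpl-11.2 at 1.79, and rpl-25.2 at -0.70 (0.01 with upper-quartile scaling) and rpl-25.1 at 1.70. Related genes that moved together were not counted.

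Cytosolic heat shock genes were mixed, 6 rising and 7 falling of 18 (median 0.11), with the same counts and a median of -0.03 with DESeq2 size factors and with 9 rising and 4 falling (median 0.83) with upper-quartile scaling. hsf-1, the heat shock factor, fell from 104, 124, 137 and 112 CPM to 27.3, 25.8, 25.2 and 25.8 CPM (-2.20, SE 0.09), and the co-chaperones dnj-13 and sti-1 fell by 0.89 and 0.95. The inducible hsp-70 rose by 1.46 (SE 0.38) from 40.6, 12.5, 19.4 and 10.6 CPM to between 46.9 and 68.8 CPM, hsp-16.2 rose by 0.98 with overlapping libraries, and hsp-43 rose by 1.74. Of 22 endoplasmic reticulum stress genes 11 rose and 8 fell (median 0.07). With DESeq2 size factors 9 rose and 9 fell (median -0.06), and with upper-quartile scaling 16 rose and 3 fell (median 0.78). hsp-4, the BiP homologue that marks that response, was at 529, 400, 753 and 375 CPM in DMSO and at 495, 468, 418 and 468 CPM in doxycycline and was not called (-0.15, SE 0.19), while ire-1 and sel-11 fell by 1.29 and 1.10.

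Of the detoxification families, 3 had more rises than the 44.8% of all genes, and the cytochrome P450 family did not. Of 65 UDP-glucuronosyltransferases tested 47 rose and 8 fell (median 1.45), the falls being 5 without DMSO replicate 4, and of 42 glutathione S-transferases 29 rose and 4 fell (median 1.37). Of 47 ABC transporters 35 rose and 7 fell (median 1.42), and of 62 cytochrome P450 genes that passed the filter, out of 74, 27 rose (43.5%) and 14 fell (median 0.44). ugt-29 went from 16.7, 11.9, 24.3 and 9.21 CPM to 192, 180, 188 and 180 CPM (3.58, SE 0.25, adjusted p = 5.6e-08), and ugt-19 and ugt-61 rose by 4.09 and 2.34. gst-13 went from 26.6, 18.1, 30.5 and 13.8 CPM to 134, 131, 148 and 121 CPM, and gst-4, the common reporter of the antioxidant factor SKN-1, from 16.3, 4.24, 6.99 and 7.04 CPM to 37.7, 33.5, 47.4 and 36.4 CPM (2.16, SE 0.37). skn-1 itself fell by 1.09, and the SKN-1 list as a whole had 11 rises and 10 falls among 27, with a median of 0.03. With DESeq2 size factors it had 10 rises and 11 falls (median -0.10), and with upper-quartile scaling 19 rises and 2 falls (median 0.74). Falls in these families included cyp-31A2 and cyp-31A3 (-3.62 and -3.08), near-identical P450 genes needed to make the eggshell, and mrp-4 (-3.44).

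Stress and defence genes gave some of the larger single changes. Of 18 DAF-16 targets tested 10 rose and 4 fell (median 1.17). The list does not separate genes that DAF-16 raises from genes that it lowers, so these counts give no direction for the factor itself. dod-17 rose from 4.81, 1.88, 1.70 and 1.43 CPM to 60.6, 58.1, 73.0 and 61.0 CPM (4.68, SE 0.38), while the small heat shock gene sip-1 changed by -5.09. sod-3, a mitochondrial superoxide dismutase, rose by 1.93 but stayed below 1.5 CPM in every library and was not called without doxycycline replicate 4 (1.62). Of 19 infection response genes 10 rose and 3 fell (median 1.03). zip-2, a transcription factor that responds to blocked translation and infection, went from 228, 213, 209 and 210 CPM to 607, 616, 701 and 643 CPM (1.58, SE 0.06, adjusted p = 2.1e-10), and irg-4 rose by 2.79, whereas atf-7 fell by 0.94. Of 136 C-type lectins that passed the filter, out of 238, 82 rose and 29 fell, with log2 fold changes between the -9.28 of clec-266 and 4.05. clec-50 was at 1.46, and clec-87, clec-88 and clec-91 were at -5.32, -4.97 and -5.05. The lysozyme lys-1 rose by 1.85. The metallothionein mtl-1 was at 0.902, 56.3, 4.68 and 77.7 CPM in DMSO and between 1.10 and 1.81 CPM in doxycycline (-4.56, SE 1.11), with DMSO replicates 2 and 4 far above the others.

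The changes were not spread evenly over the chromosomes. On chromosome X, 54.1% of 2159 genes rose and 24.9% fell, and on chromosome V 52.9% of 3074 rose and 30.5% fell, with medians of 0.67 and 0.73. On chromosomes I and III 36.4% and 36.5% rose and 52.1% and 50.7% fell, with medians of -0.45 and -0.39. Chromosomes II and IV lay between, with medians of 0.03 and 0.33. In C. elegans the X chromosome is known to be poor in germ line genes. Chromosome is not a replicated unit here, and no test was made.

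**Figure D5:**
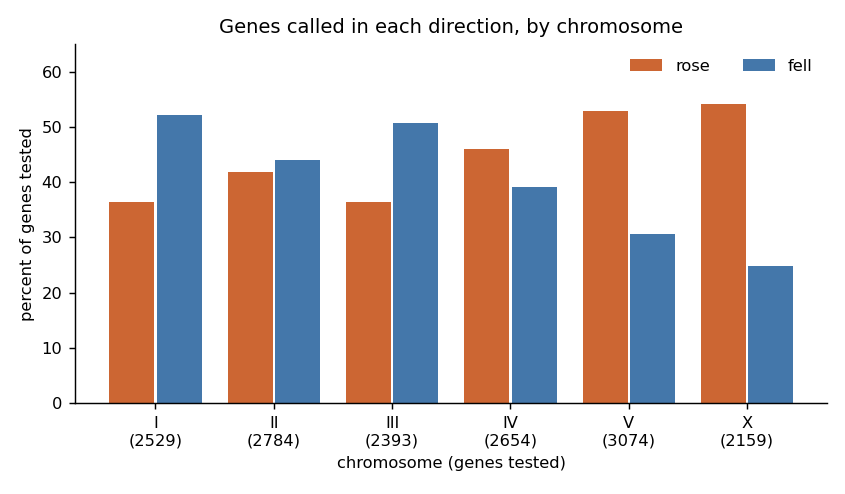
Percent of the genes tested on each chromosome (number in brackets) that rose (orange) and fell (blue) in doxycycline. Rises outnumbered falls on X, V and IV, and falls outnumbered rises on I, II and III.

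Doxycycline was last contrasted with teriflunomide, the other mitochondrial inhibitor of the batch. The DMSO libraries were not part of the contrast itself, but they shared its filter, scaling and estimate of the spread. Of the 15695 genes 5700 were higher (36.3%) and 5940 lower (37.8%) in doxycycline, together 74.2%, with a median of 0.22. With upper-quartile scaling 9317 were higher and 4064 lower. Fitted without the DMSO libraries, 7062 of 15081 genes were higher and 5870 lower, so which direction had more genes depended on the fit. All 29 oocyte and eggshell genes were lower in doxycycline (median -4.30), as were all 41 germ granule and meiosis genes (median -2.14) and all 42 replication genes (median -2.44). Of 86 sperm genes 15 were higher and 7 lower. Of the mitochondrial DNA genes 9 of 10 were higher (median 0.75), and hsp-6 was not called, at 705 ± 35.4 CPM in doxycycline and 630 ± 38.9 CPM in teriflunomide (0.16, SE 0.07, adjusted p = 0.062). hsp-60 was lower in doxycycline, by 0.50 on the log2 scale. With upper-quartile scaling the median of all genes in this contrast was 0.96 instead of 0.22. The call of hsp-6 and the direction of hsp-60 are therefore not settled here.

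Genes with large differences between the compounds included several of detoxification. cyp-13A6, a cytochrome P450, stood at 1526, 1422, 1633 and 1306 CPM in teriflunomide and at 1.14, 0.620, 0.808 and 0.585 CPM in doxycycline (log2 fold change -10.85, SE 0.28). cyp-13A4, cyp-13A7, ugt-34 and gst-8 were lower in doxycycline, with log2 fold changes of -11.53, -8.34, -11.50 and -9.29, and all 4 were below 1 CPM in the DMSO libraries too. sea-1, a T-box gene that acts as an autosomal signal in sex determination, was lower too (-7.58). Higher in doxycycline were dct-19, with 0 counts in teriflunomide (at least 200-fold), acdh-2, an acyl-CoA dehydrogenase, also with 0 counts there (at least 881-fold), and catp-2 with 1 count (ratio 1089, interval 195 to 43059). nspe-7, sysm-1 and parg-2 were higher by 10.01, 8.74 and 8.61 on the log2 scale. acdh-2 and sysm-1 did not differ detectably from DMSO, where their libraries ranged from 1.38 to 27.1 CPM and from 4.31 to 48.9 CPM, so the doxycycline and DMSO ranges overlapped for both genes.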

How the data were processed

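RNA was measured by RNA-seq of whole worms; raw gene counts were deposited by the authors as a single table, with no normalisation. The submitters' processing notes name FastQC, STAR 2.7.3a, DESeq2 1.40.2 and the build WBcel235; the counter, its strand setting and the annotation release are not given in the sources used here, so overlapping and antisense genes are uncertain. The labels call the 4 samples of a group biological replicates.

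Counts of the 12 libraries of batch 2 were fitted together with edgeR 4.0.16 in R 4.3.3 (TMM, filterByExpr with a minimum count of 10, robust quasi-likelihood fit, Benjamini-Hochberg adjustment over all 15695 genes, threshold 0.05). Shares of counts were compared by two-sided exact permutation tests (scipy 1.17.1). SE is the absolute log2 fold change over the square root of F. Fold bounds use a floor of 3 counts over 4 libraries, and 95% intervals cover counting error only. The scripts were run on simulated counts in which few genes changed, so that run does not test the scaling where most genes differ. Alternatives were DESeq2 1.42.0, other scalings and filters, only the groups compared, the replicate block and leaving out each library.

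Of 27782 identifiers 27549 were named from the reference tables, 1876 of them by position in RefSeq. The members and the 57 gene lists were chosen with earlier results of these data known. Named genes were the 12 largest rises and falls with a symbol (adjusted p below 0.05, at least 5 CPM on average in one group, libraries of the groups apart, at most 3 per symbol stem), 3 each with a sequence name, the 4 members of every list with the smallest p, all members called in a list where 5 or fewer are, a panel of known genes, and 6 each way against teriflunomide; other genes named were chosen after their values were seen. Sequences are not shown.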

Additional observations from a re-analysis of the deposited data

Results flagged for a closer look

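In 33 of 502 groups of 4 libraries (6.57%) 1 library lay far from the other 3; chance gives about 1 in 20. Of these 15 were DMSO replicate 1 and 14 were in the doxycycline group.

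DMSO replicate 1 was the highest of its group for the share of mitochondrial DNA genes (0.703%, others 0.435% to 0.473%), for the sperm share (0.343%, others at most 0.0752%), for the collagen col-149 (10.5 CPM), ctc-1 (2950 CPM), ctc-2 (708 CPM), dod-17 (4.81 CPM), the desaturases fat-1 (433 CPM) and fat-7 (34.8 CPM), myo-2 (253 CPM), pycr-1 (15.5 CPM), sams-1 (343 CPM) and the sperm gene spe-9 (3.01 CPM). It was the lowest for hmg-5 (47.6 CPM), ins-11 (0.2 CPM) and mtss-1 (73.0 CPM).

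Other DMSO libraries apart were replicate 3 for egg-3 (169 CPM, highest) and myo-5 (41.6 CPM, lowest), replicate 2 for pes-1 (3.57 CPM, highest) and replicate 4 for F22B3.7 (0.0492 CPM, a single count).

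In the doxycycline group replicate 2 was highest for cox-5A (736 CPM), isp-1 (696 CPM), ucr-2.1 (427 CPM) and cyp-13A4 (0.517 CPM), and lowest for sdz-28 (0.155 CPM). Replicate 3 was highest for ctc-2 (1110 CPM) and lowest for rpn-8 (97.2 CPM), replicate 4 highest for cya-1 (17.3 CPM), and replicate 1 highest for tfbm-1 (9.63 CPM) and lowest for lys-1 (891 CPM). Single counts set dsl-2 and skr-8 (0.0517 CPM, replicate 2), fbxc-40 (0.0488 CPM, replicate 4) and pes-1 (0.0475 CPM, replicate 3).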

How the results depend on the processing

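The count of genes called against DMSO stayed within 1.5 times the 13331 reported under each alternative run: 12881 with DESeq2, 13205 with its size factors in edgeR, 13393 with library size only, 13860 with upper-quartile scaling, 14214 with no filter (24337 genes), 11235 with a minimum count of 50 (12507 genes), 12795 with only the compared groups, and 12945 to 13672 leaving out each library. Upper-quartile scaling moved the share of calls that were higher from 52.7% to 65.8%, and against teriflunomide it raised the genes higher in doxycycline from 5700 to 9317. With the replicate block 13098 genes were called against DMSO and 10992 against teriflunomide. Same-numbered libraries did not deviate together (correlations -0.0136, -0.211, -0.103 and -0.0888), so the numbers were not taken as pairs; under the block, fat-7 (1.22) passed the threshold and ins-11 (-1.98) and ugt-34 (-2.06) no longer did, and no other named gene changed its call.

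Signs turned for 24 named genes, most of them small changes. With upper-quartile scaling the values were 0.27 for asg-1, 0.44 for atfs-1, 0.48 for clpp-1, 0.35 for cpr-6, 0.49 for cyp-13A4, 0.42 for cyp-13A7, 0.63 for glh-1, 0.55 for haf-1, 0.56 for hsp-4, 0.59 for hsp-60, 0.47 for lonp-1, 0.38 for pat-3, 0.010 for rpl-25.2, 0.62 for rpn-6.2, 0.44 for spe-44, 0.33 for spe-5, 0.28 for tomm-40, 0.30 for unc-60, 0.48 for vit-2 and 0.14 for vit-5. With a minimum count of 50 they were 0.016 for cyp-13A4, 0.15 for glh-1, 0.062 for haf-1, 0.072 for hsp-4, 0.11 for hsp-60, 0.14 for rpn-6.2 and 0.0011 for vit-2. With DESeq2 and with its size factors in edgeR, sysm-1 was at -0.038 and -0.037, vit-6 at -0.068 and -0.068 and ymel-1 at -0.035 and -0.035; vit-6 was at -0.0028 without a filter. Leaving out 1 library in turn gave -0.68 to 0.69 for cyp-13A4, -0.56 to 0.20 for cyp-13A7, -0.081 to 0.41 for gst-8, -0.28 to 0.089 for hsp-4, -0.21 to 0.0061 for hsp-60, -0.25 to 0.48 for sysm-1 and -0.046 to 0.14 for vit-6. For the scalings these follow the shift of all genes. With a minimum count of 50 the genes listed for it also moved up by like amounts, glh-1 from -0.08 to 0.15 and rpn-6.2 from -0.09 to 0.14. The cause of the other turns was not tested.

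With 4 libraries a group, shares cannot give an exact p below 0.0286. Genes under about 1 CPM rest on few counts per library, so their folds are uncertain, and the small changes whose sign turned with the scaling, listed above, have no settled direction.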
